A study of Mus musculus with 3 samples.

Results

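The comparison set RNA collected 6 h after removal of a gamma-secretase inhibitor against RNA collected 1 h after its removal. It used 2 of the series' 3 libraries, 1 for each time, taken by the time in their titles, and it covered 10311 genes kept of 23298 gene symbols. All 3 cultures were C2C12, a mouse myoblast line, engineered with human NOTCH1 cut down to a form without its extracellular domain, which the series title abbreviates. For the series the labels describe culture with 10 uM DAPT, an inhibitor of gamma-secretase, which in the cultures of interest was washed away 1 h or 6 h before collection. The remaining library is a control labelled as having no treatment; whether it stayed in DAPT until collection or never had the drug is not stated in the labels, and its values are given beside those of the washout libraries without entering the comparison. In the table of the whole series the washout columns carry the time and a word, cont, that is explained nowhere in the labels. Neither the promoter of the transgene nor whether the cells were a single clone is given in the sources used here.

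Notch receptors are cut by gamma-secretase, which frees an intracellular domain that enters the nucleus and joins the DNA-binding protein RBPJ and a Mastermind coactivator on target genes. A receptor without its extracellular domain needs no ligand, so that the protease controls its release, and washing out the inhibitor lets cutting resume. Best-known targets are the repressors of the Hes and Hey families, and in myoblasts Notch signalling is known for holding back muscle differentiation. Growth factors and stress induce immediate early genes, which need no new protein and whose mRNAs are short-lived.

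Levels are deposited FPKM, which are fragment numbers divided by transcript length and by library size. A gene was kept when it averaged 1 FPKM or more across the washout libraries, had a level above 0 in all 3 libraries and did not carry the symbol of a short RNA. The difference of a gene is log2(FPKM + 1) at 6 h minus log2(FPKM + 1) at 1 h, and a gene counted as past 2-fold when this was at least 1 or at most -1. A fold in the text is the plain ratio of the FPKM of the later and the earlier library, and the range after it comes from the widths of the deposited 95% bounds. Such a range covers counting and read assignment inside a library only. With 1 library at each time there is no replicate, so no test was possible and no difference below has been checked against the spread between cultures. Where 3 FPKM values follow each other without further words, they are those of the control, the 1 h and the 6 h library in that order. In bulk RNA, fewer cells of a type and less RNA per cell cannot be told apart. The widths of the deposited bounds correspond to about 12420000 counted fragments in both washout libraries and 13920000 in the control, if those bounds are 2 standard deviations of counting error on either side.

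The myoblast label was only partly borne out by its markers. Desmin (Des) had 62.2 FPKM in the control, then 73.3 at 1 h and 66.3 at 6 h. M-cadherin (Cdh15) and the muscle determination factor Myf5 were also present, and the acetylcholine receptor subunit gene Chrna1 had 6.33, 6.52 and 4.81 FPKM. By contrast, the determination factor Myod1 had 0.189 FPKM in the control and 0.295 at 1 h and was listed at 0 at 6 h, and Msc, Myog and Pax7 stayed below 1 FPKM in every library. The summed FPKM of 16 myogenic regulators was 107, 134 and 157 FPKM, of which Cdh15 alone made up 27.4, 41.2 and 87.0 FPKM. Of the 7 regulators kept, 2 were above and 5 below their 1 h level, with a median difference of -0.19. All 8 endothelial and blood cell markers stayed near or below 1 FPKM, with a highest value of 1.04 FPKM for Cd68 at 6 h, and Cdh5, Ptprc and Emr1 were listed at 0 throughout. Some markers of mural, osteoblast and adipocyte lineages were present: the sums were 95.1, 81.3 and 144 FPKM over 8 fibroblast and mural markers, 957, 980.1 and 1617 FPKM over 6 osteoblast markers and 54.7, 50.4 and 33.8 FPKM over 7 adipocyte markers. Nearly all of the first sum was the receptor gene Pdgfrb and nearly all of the second the phosphoprotein gene Spp1. These lists pointed both ways. Thy1, Lum and Tcf21 (fibroblasts), Ibsp (osteoblasts) and Plin1 (adipocytes) were listed at 0 in all 3 libraries. Above 0 at 1 h or 6 h were 5 of the 8 fibroblast and mural, 4 of the 6 osteoblast and 5 of the 7 adipocyte markers. Among them were the osteoblast factor gene Runx2 and the adipogenic regulators Cebpa and Pparg. The part of other cell types in the results below was not tested.

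Of the 10311 genes, 113 (1.10%) stood 2-fold or more above the 1 h level at 6 h and 141 (1.37%) stood 2-fold or more below it. Without regard to size, 4653 genes were above and 5658 below the 1 h level. These shares are the background for the list counts below. The 95% bounds of the washout libraries were apart for 112 of the higher and all 141 of the lower genes. With a pseudocount of 5 in place of 1, which shrinks low genes further, 46 and 65 genes passed, and with 0.1 the counts were 177 and 234. The larger differences were mostly losses, with 26 genes 4-fold or more lower and 11 similarly higher on the log2(FPKM + 1) scale. Most genes differed little: the median difference over all genes kept was -0.03, and the quartiles were -0.23 and 0.16. Genes past 2-fold upward were low at 1 h, with a median of 6.64 FPKM, and stood at a median of 21.1 FPKM at 6 h. Those past 2-fold downward had a median of 17.2 FPKM at 1 h and 5.48 FPKM at 6 h. The median of all genes kept was 13.9 FPKM at 1 h and 13.3 FPKM at 6 h. Just inside the threshold lay Murc, at -1.001, and Zfp7, at 1.002, and just outside it Cebpa, at -0.99, and Timp1, at 0.99. Without regard to size, bounds were apart for 2037 genes (19.8%) that were higher and 2383 (23.1%) that were lower at 6 h. All counts of bounds apart depend on where the bounds lie. FPKM fell outside its own bounds for 19.9% of rows above 1 FPKM at 1 h and 20.0% at 6 h.

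**Figure D1:**
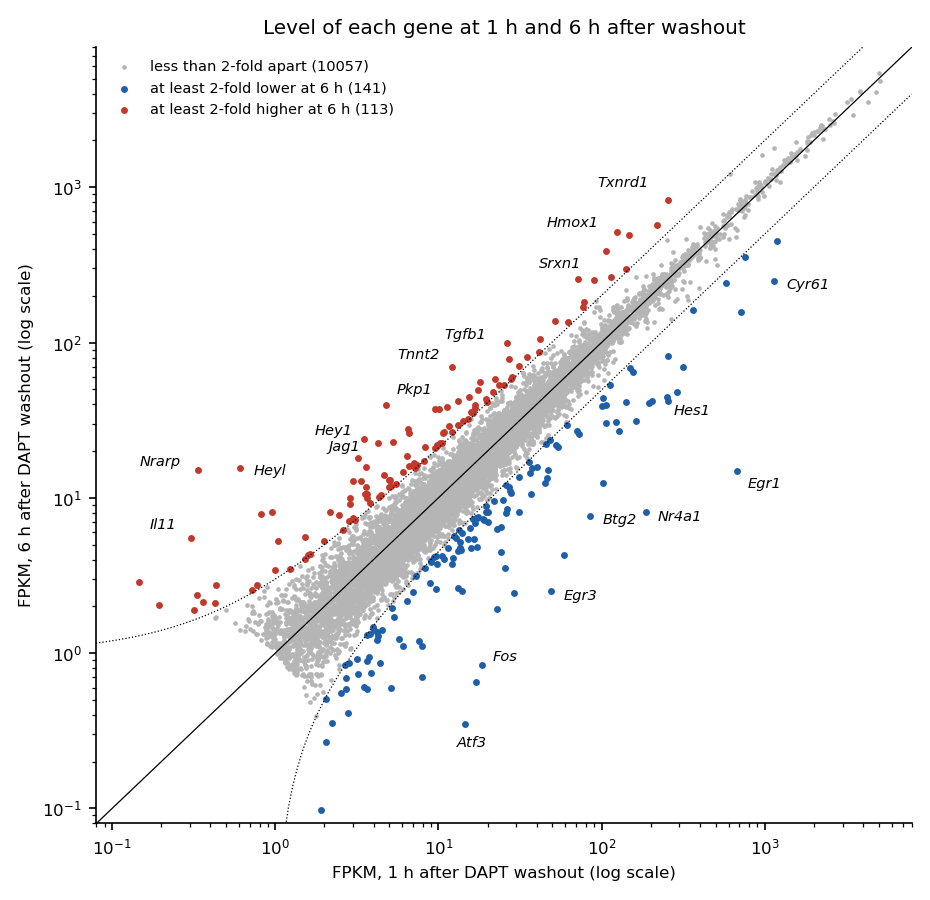
FPKM of each of the 10311 genes kept at 1 h (horizontal, log scale) and at 6 h (vertical, log scale), 1 library each, with the line of equal levels and dotted curves at 2-fold on the log2(FPKM + 1) scale. Farthest from the line are Egr1 (45.8-fold) and Atf3 (42.0-fold) among the 141 genes below the lower curve. Among the 113 above the upper one they are Nrarp (44.8-fold) and Heyl (25.7-fold).

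Notch targets did not move as one group between 1 h and 6 h. Of 16 listed targets 12 were kept, of which 4 were past 2-fold upward at 6 h and 3 downward, with a median difference of 0.02 (-0.25 without Nrarp) beside -0.03 over all genes kept. The 4 targets that stood far higher at 6 h were 3 nuclear repressors or regulators and a ligand. Heyl, a HES-related repressor, had 0.603 FPKM at 1 h and 15.5 at 6 h beside 0.316 in the control, 25.7-fold higher (19.8 to 33.4) than at 1 h. Nrarp, an ankyrin repeat protein that acts on the Notch complex as a feedback inhibitor, had 0.362 FPKM in the control, then 0.336 at 1 h and 15.1 at 6 h, 44.8-fold higher (28.7 to 70.1). Both were below 1 FPKM in the control and at 1 h alike, and only the 6 h library held them at a level above that of the median gene. Hey1, a relative of Heyl, stood at 1.87, 3.52 and 23.9 FPKM, and its 6 h level was 6.78-fold higher (5.56 to 8.28). Jag1, which encodes a Notch ligand, stood at 4.63, 4.26 and 22.6 FPKM and was 5.30-fold higher (4.71 to 5.95). In the files Heyl lies at chr4:122910799-122927113, Nrarp at chr2:25036278-25038852, Hey1 at chr3:8663359-8667038 and Jag1 at chr2:136907187-136942256, on mm9 with no strand given.

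Hes1, the basic helix-loop-helix repressor that answers Notch fastest in many cells, went the other way. It had 254 FPKM at 1 h and 44.8 at 6 h beside 22.5 in the control, which made it 5.66-fold lower (5.21 to 6.14) at 6 h than at 1 h, while its 6 h level was still above that of the control. Its locus is chr16:30065443-30067882 (mm9). Lfng, a glycosyltransferase that modifies Notch receptors, had 11.99 FPKM in the control, then 11.4 at 1 h and 4.73 at 6 h, 2.41-fold lower (1.95 to 2.98). Snai2, a zinc finger repressor of epithelial genes, had 19.6 FPKM at 1 h and 8.87 at 6 h beside 12.2 in the control, 2.20-fold lower (1.87 to 2.60). So Hes1 alone among the 12 targets combined a 1 h level several times that of the other libraries with a partial return, whereas Lfng was similar in the control and at 1 h and was low in the 6 h library alone.

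The other 5 kept targets were less than 2-fold apart. Myc, a growth-promoting transcription factor, had 51.8, 103 and 57.7 FPKM, a difference of -0.83. The ephrin ligand gene Efnb2 differed by -0.28 and the cyclin gene Ccnd1 by -0.25. Notch3, a receptor gene, was at 6.78, 7.10 and 8.99 FPKM, and Gata3, a zinc finger transcription factor, at 7.44, 5.30 and 8.48 FPKM, with differences of 0.30 and 0.59. Of the 4 targets not kept, Hes5 and Dtx1 were listed at 0 in all 3 libraries, Hes7 reached at most 0.206 FPKM and Hey2 had 0.0503, 0.247 and 0.415 FPKM.

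**Figure D2:**
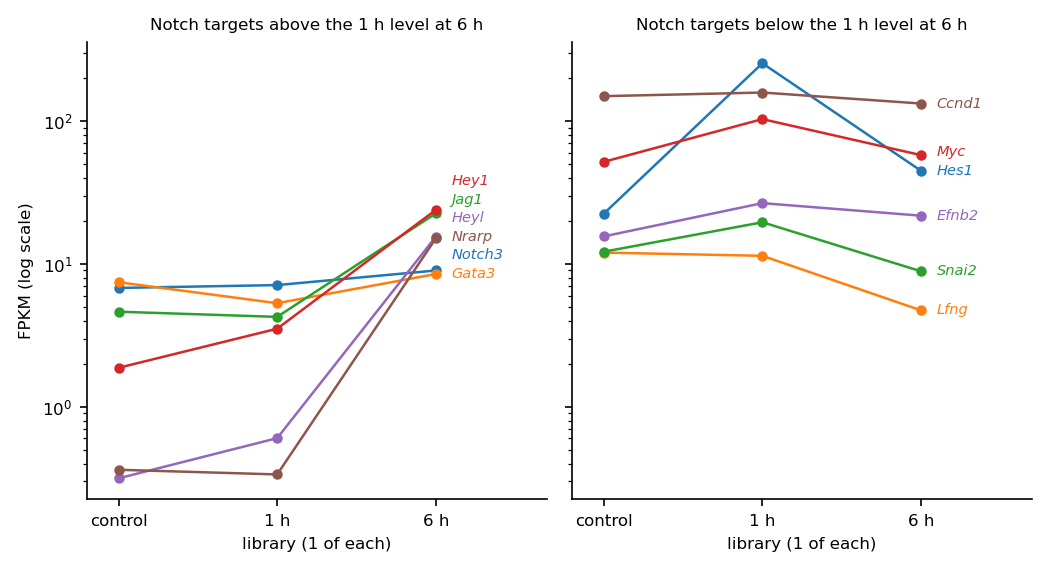
FPKM (log scale) of the 12 Notch targets kept in the control, 1 h and 6 h libraries, 1 library each, split by whether the gene was above or below its 1 h level at 6 h. Heyl, Nrarp, Hey1 and Jag1 are low in the control and at 1 h and high at 6 h, while Hes1 peaks at 1 h.

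Pathway components were listed apart from the targets above, and so without Jag1, Nrarp and Lfng. They mostly differed by less than 2-fold, in a range from -1.07 to 0.61, with bounds apart for 5 higher and 9 lower members. Of 38 listed components 33 were kept, 0 were past 2-fold upward and 1 downward, and the median difference was -0.03, or 0.01 after scaling the libraries to a median ratio of 1. That gene was Maml2, a Mastermind coactivator, with 2.08 FPKM in the control, then 4.04 at 1 h and 1.41 at 6 h, 2.87-fold lower (2.39 to 3.45). Its relatives Maml1 and Maml3 differed by 0.07 and -0.54. Rbpj itself had 21.7, 22.1 and 15.4 FPKM, a difference of -0.49. The gamma-secretase subunit genes Ncstn, Psenen and Aph1a were at closely similar levels at both times, with differences of -0.05 for nicastrin (Ncstn), -0.03 for Psenen and 0.06 for Aph1a, while the lower-expressed presenilin gene Psen2 differed by -0.50. The mouse Notch1 gene had 3.65, 4.32 and 6.01 FPKM. Reads from the transgene, a human sequence, may have been mapped here in part, since no file tells the origins apart. Among ligands other than Jag1, Jag2 had 2.14 and 2.12 FPKM at 1 h and 6 h, and Dll1, Dll3 and Dll4 stayed below 1 FPKM.

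Immediate early transcription factors were the list with the most lower members. Its lower members include Arc, an immediate early gene that does not encode a transcription factor, at 5.69, 14.0 and 2.52 FPKM. Of 34 listed 31 were kept, 15 were past 2-fold downward at 6 h and 0 upward, and the median difference was -0.96. Over all genes kept 1.37% were past 2-fold downward. Egr1, a zinc finger factor induced by growth factors, had 681 FPKM at 1 h and 14.9 at 6 h beside 18.1 in the control, 45.8-fold lower (42.1 to 49.8), the lowest difference of all genes kept (-5.43). The orphan nuclear receptor gene Nr4a1 had 1.87 FPKM in the control, then 186 at 1 h and 8.06 at 6 h, 23.1-fold lower (20.4 to 26.1). Egr1 had come down to a level below that of the control, whereas Nr4a1 at 6 h was still above its control level. Egr3 had 49.0 FPKM at 1 h and 2.50 at 6 h beside 1.87 in the control, 19.6-fold lower (14.6 to 26.4), and Egr2, which acts in myelination and early development, had 1.58 FPKM in the control, then 58.8 at 1 h and 4.28 at 6 h, 13.7-fold lower (11.6 to 16.2).

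Among genes of AP-1 factors, Fos, Fosb and Atf3 were low in the control and at 6 h, while Junb and Jun were well expressed in all 3 libraries and differed by smaller folds. Fos had 18.6 FPKM at 1 h and 0.837 at 6 h beside 0.475 in the control, 22.2-fold lower (15.6 to 31.7), and its relative Fosb had 0.415 FPKM in the control, then 16.9 at 1 h and 0.651 at 6 h, 25.9-fold lower (19.6 to 34.3). Atf3, a stress-induced member of the ATF family, had 14.6 FPKM at 1 h and 0.347 at 6 h beside 0.375 in the control, 42.0-fold lower (25.6 to 69.1). These genes were below 1 FPKM at 6 h, as in the control, and well above it in the 1 h library alone. Junb had 54.7 FPKM in the control, then 254 at 1 h and 82.0 at 6 h, 3.10-fold lower (2.92 to 3.28), and Jun had 142 FPKM at 1 h and 41.3 at 6 h beside 59.0 in the control, 3.43-fold lower (3.24 to 3.64). Klf2, a Krüppel-like factor known from endothelium and lymphocytes, had 4.12 FPKM in the control, then 25.6 at 1 h and 3.52 at 6 h, 7.29-fold lower (5.73 to 9.27). Members of the Fos family that respond later and for longer differed less: Fosl1 had 106, 112 and 99.6 FPKM, Fosl2 47.4, 48.3 and 35.6 FPKM, and their differences were -0.16 and -0.43. The serum response factor gene Srf, whose product drives many of these genes, had 50.7, 61.8 and 49.2 FPKM.

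Feedback inhibitors of MAP kinase signalling were lower too, in part. Of 21 listed 19 were kept, 5 were at least 2-fold lower and 0 higher, with a median of -0.25, or -0.59 among members averaging 5 FPKM or more. Bounds were apart for 4 higher and 10 lower members, and the highest difference was 0.94. Dusp2, a nuclear phosphatase for MAP kinases, had 23.0 FPKM at 1 h and 1.93 at 6 h beside 2.38 in the control, 11.9-fold lower (8.71 to 16.4). Dusp1, which dephosphorylates the stress kinases p38 and JNK, had 22.8 FPKM in the control, then 254 at 1 h and 42.2 at 6 h, 6.02-fold lower (5.63 to 6.44). Errfi1, an inhibitor of the EGF receptor, had 163 FPKM at 1 h and 31.4 at 6 h beside 26.5 in the control, 5.17-fold lower (4.84 to 5.52). The phosphatase gene Dusp8 had 1.16, 4.39 and 0.865 FPKM and the receptor tyrosine kinase antagonist Spry2 15.5, 72.6 and 25.7 FPKM, 5.07-fold lower (4.00 to 6.44) and 2.83-fold lower (2.57 to 3.11).

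Of 12 genes for mRNA decay factors, all kept, 3 were at least 2-fold lower and 0 higher, with a median of -0.20. The highest difference was 0.90, and bounds were apart for 3 higher and 6 lower members. Btg2, an antiproliferative protein that recruits the deadenylase, had 4.18 FPKM in the control, then 84.5 at 1 h and 7.64 at 6 h, 11.1-fold lower (9.75 to 12.5). Zfp36, which binds AU-rich elements and speeds decay of cytokine and early gene mRNAs, had 103 FPKM at 1 h and 12.5 at 6 h beside 14.0 in the control, 8.24-fold lower (7.29 to 9.32). Its relative Zfp36l1 was at 6.84, 18.9 and 7.22 FPKM, 2.62-fold lower (2.28 to 3.02).

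The following promoter stretches are shown because Fos, Btg2, Dusp1 and Zfp36 came down together and their proximal promoters hold letters of the response elements known for stimulus-induced genes. They are RefSeq sequences on GRCm38.p6, written 5′ to 3′ on the gene's strand, and capitals mark a motif: in Fos the core TGACG of the cAMP response element (CRE), in Btg2 and Dusp1 the full CRE TGACGTCA, and in Zfp36 a CArG box, the element bound by serum response factor.
Fos promoter, chr12:85473740-85473889, strand +: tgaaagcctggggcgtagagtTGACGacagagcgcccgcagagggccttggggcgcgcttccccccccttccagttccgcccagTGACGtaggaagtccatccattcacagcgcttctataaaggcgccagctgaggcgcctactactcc
Btg2 promoter, chr1:134079156-134079355, strand -: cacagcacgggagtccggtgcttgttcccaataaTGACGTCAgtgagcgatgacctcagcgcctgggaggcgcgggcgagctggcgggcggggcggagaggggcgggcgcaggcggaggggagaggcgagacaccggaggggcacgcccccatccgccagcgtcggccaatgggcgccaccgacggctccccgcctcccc
Dusp1 promoter, chr17:26508473-26508672, strand -: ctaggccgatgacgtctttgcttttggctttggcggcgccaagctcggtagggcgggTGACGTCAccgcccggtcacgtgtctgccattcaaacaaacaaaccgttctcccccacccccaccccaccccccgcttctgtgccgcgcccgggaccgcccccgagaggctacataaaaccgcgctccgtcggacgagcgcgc
Zfp36 promoter, chr7:28379229-28379378, strand -: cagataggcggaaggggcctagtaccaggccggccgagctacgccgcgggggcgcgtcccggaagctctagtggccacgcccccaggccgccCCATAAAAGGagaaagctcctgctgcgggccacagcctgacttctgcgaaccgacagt

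In Fos the core starts 129 and 66 bases before the transcription start, in Btg2 the CRE starts 166 bases before it and in Dusp1 143 bases before it, and in Zfp36 the CArG box starts 58 bases before it. Both strands were searched, and the full CRE contains the core. Of 32851 promoters in the reference table, 17.8% held the core, 1.55% the full CRE and 1.47% a CArG box in the 250 bases upstream. A match is a description of letters, not a shown binding site. The promoters of Fos, Btg2, Dusp1 and Zfp36 were picked for holding a match, and windows of higher genes hold the same letters. The full CRE lies in Mcam, a CArG box in Pdgfc and Tcf7, and the core in Nrarp, Jag1 and Gclm. The promoter table had an entry for 110 of the 141 lower genes (78.0%) and 86 of the 113 higher ones (76.1%), fewer than the 80% set as a minimum, so no share of promoters was compared between the sets. The RBPJ core TGGGAA is present in 21.6% of all promoters of the table. In the single windows available for Nrarp and Jag1 it is not among the letters of those 250 bases, and Lfng has it at 2 places. No promoter entry was available for Hes1, Heyl and Hey1, so their windows were not searched.

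**Figure D3:**
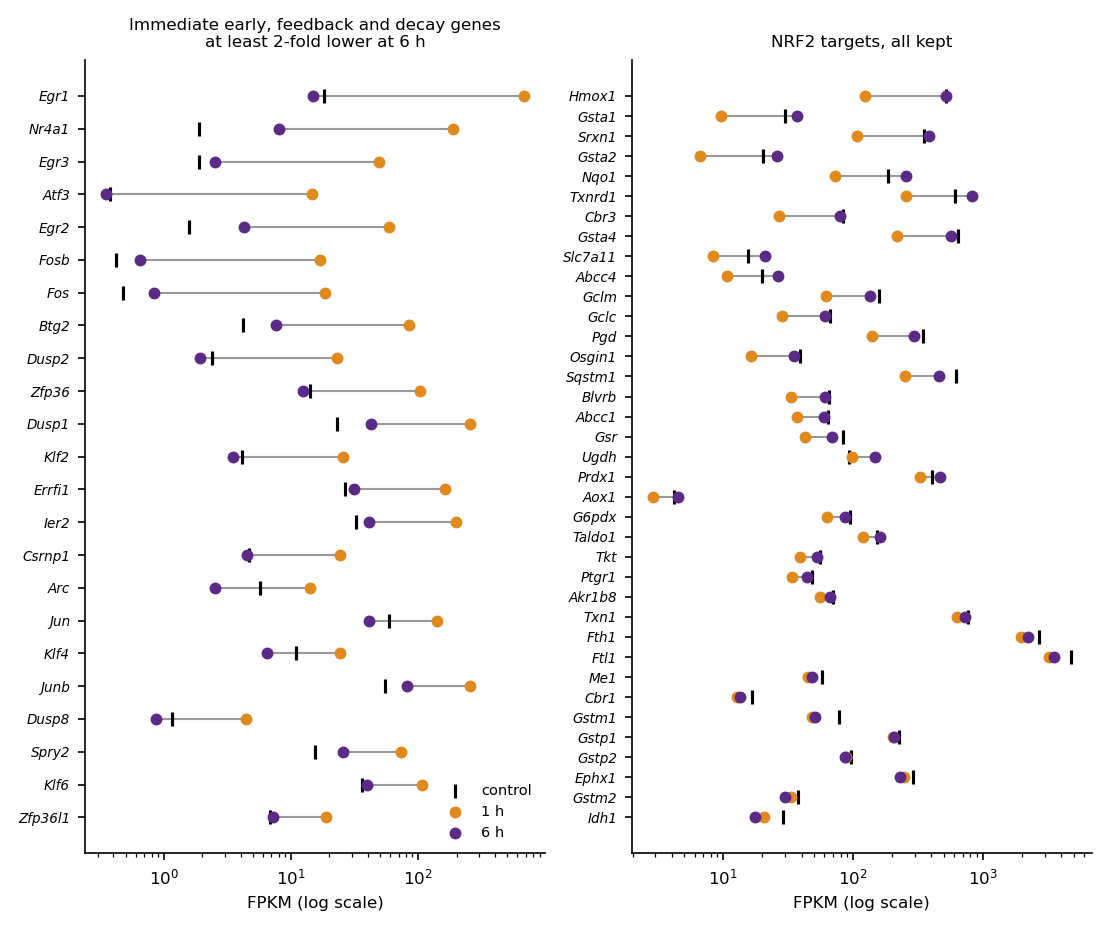
FPKM (log scale) in the control (black tick), 1 h (orange) and 6 h (purple) libraries, 1 library each, of the immediate early, feedback and decay genes at least 2-fold lower at 6 h (left) and of all 37 NRF2 targets kept (right). On the left the 1 h library stands out to the right of the other libraries, and on the right it is the lowest of the 3 for most genes.

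Genes of the oxidative stress factor NRF2 were the list with the most higher members. NRF2 binds antioxidant response elements and drives enzymes of glutathione synthesis, thiol reduction and detoxification. Of 39 listed targets 37 were kept, 14 were past 2-fold upward at 6 h and 0 downward, 33 of the 37 were above their 1 h level and the median difference was 0.57. Over all 10311 genes kept 1.10% were past 2-fold upward and 4653 were above the 1 h level. Hmox1, the inducible haem oxygenase, had 515 FPKM in the control, then 124 at 1 h and 518 at 6 h, 4.16-fold higher (3.97 to 4.36). Srxn1, the sulfiredoxin that repairs peroxiredoxins, had 106 FPKM at 1 h and 386 at 6 h beside 352 in the control, 3.63-fold higher (3.49 to 3.78). The quinone reductase gene Nqo1 had 186 FPKM in the control, then 72.0 at 1 h and 255 at 6 h, 3.54-fold higher (3.33 to 3.77). Each of these 3 genes was lowest at 1 h, and at 6 h each stood at or above its control level.

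Txnrd1, the cytosolic thioredoxin reductase, was the most abundant of the genes at least 2-fold higher, with 256 FPKM at 1 h and 830.2 at 6 h beside 608 in the control, 3.24-fold higher (3.17 to 3.31), at chr10:82296696-82360469 (mm9). Its 6 h level was above the control as well. The mitochondrial Txnrd2 was listed at 0 in the control and at 6 h, so no fold is given for it. The glutathione transferase genes Gsta1 and Gsta2 had 29.9, 9.56 and 37.1 FPKM and 20.1, 6.63 and 26.1 FPKM. Their near-identical neighbours Gm3776 and Gm10639 had 21.6, 6.48 and 27.7 FPKM and 9.84, 3.002 and 12.8 FPKM, and since reads of such copies can be shared among them, the level of each of the 4 is uncertain, while all 4 were at least 2-fold higher at 6 h.

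By role, the rate-limiting enzymes of glutathione synthesis stood together: the catalytic subunit gene Gclc had 66.0, 28.1 and 60.2 FPKM and the modifier subunit gene Gclm 159, 62.1 and 136 FPKM, 2.14-fold higher (1.99 to 2.30) and 2.19-fold higher (2.05 to 2.34). Slc7a11, which imports cystine for the same pathway, had 15.6, 8.28 and 21.1 FPKM, and the glutathione reductase gene Gsr, below 2-fold, 83.0, 42.9 and 68.1 FPKM. Enzymes that supply NADPH were graded, with Pgd past 2-fold at 347, 141 and 295 FPKM, and G6pdx, Taldo1, Tkt and Me1 within it at differences of 0.46, 0.45, 0.42 and 0.10. The iron storage genes Fth1 and Ftl1, the most abundant of the list, differed by 0.20 and 0.14. Below their 1 h level were Idh1 (-0.21), Gstm2 (-0.15), Ephx1 (-0.12) and Gstp2 (-0.02), the last sharing sequence with Gstp1. Of the 2 listed genes not kept, the iron exporter gene Slc40a1 had 3.12, 0.390 and 1.396 FPKM and Gsta3 stayed below 1 FPKM.

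The promoters of Srxn1, Gclm and Txnrd1 are shown because these genes stood higher together and their windows hold letters of AP-1-like and antioxidant elements. Capitals mark the AP-1 site TGANTCA in Srxn1 and the antioxidant response element core TGACNNNGC in Gclm and Txnrd1, where it lies on the reverse strand. The source, build and orientation are those given for the promoters above, and the Txnrd1 stretch belongs to 1 of 3 promoters in the table.
Srxn1 promoter, chr2:152105374-152105523, strand +: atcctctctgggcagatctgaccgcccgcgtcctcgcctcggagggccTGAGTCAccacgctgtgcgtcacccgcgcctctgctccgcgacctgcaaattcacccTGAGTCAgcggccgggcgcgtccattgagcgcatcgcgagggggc
Gclm promoter, chr3:122245407-122245556, strand +: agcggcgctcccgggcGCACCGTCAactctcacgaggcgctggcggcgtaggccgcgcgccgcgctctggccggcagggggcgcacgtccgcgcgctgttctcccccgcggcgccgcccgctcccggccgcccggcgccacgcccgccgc
Txnrd1 promoter, chr10:82859056-82859205, strand +: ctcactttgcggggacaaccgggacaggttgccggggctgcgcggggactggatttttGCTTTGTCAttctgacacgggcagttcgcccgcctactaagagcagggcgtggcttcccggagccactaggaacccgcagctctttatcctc

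The AP-1 site starts 102 and 45 bases before the start of Srxn1, and the antioxidant core 134 bases before that of Gclm and 92 before that of Txnrd1. Of all promoters listed, 6.75% held the AP-1 site and 10.2% the antioxidant core, on either strand. The promoters shown were picked for holding a match. The windows of the higher NRF2 targets Nqo1 and Slc7a11 hold neither element, whereas those of Abcc4 hold the antioxidant core. That core also lies in windows of lower genes, among them Per1, Klf6 and Dusp1, where it is not marked above.

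Targets of the serum response factor and YAP, which read out actin tension, were lower as well. Of 23 listed 22 were kept, 5 were at least 2-fold lower and 0 higher, 20 of the 22 were below their 1 h level and the median was -0.25. Over all 10311 genes kept 1.37% were at least 2-fold lower and 5658 were below the 1 h level. Cyr61, a secreted matricellular protein, had 252 FPKM in the control, then 1139 at 1 h and 248 at 6 h, 4.58-fold lower (4.46 to 4.72). Ankrd1, a nuclear ankyrin repeat protein of stretched muscle, had 713 FPKM at 1 h and 157 at 6 h beside 219 in the control, 4.55-fold lower (4.37 to 4.74). At 6 h Cyr61 was close to its control level and Ankrd1 below it. Ctgf, a relative of Cyr61, had 213 FPKM in the control, then 1189 at 1 h and 451 at 6 h, 2.63-fold lower (2.58 to 2.69), and kept a level above the control. Filip1l, at 29.4, 46.6 and 13.4 FPKM, and the LIM protein gene Fhl2, at 94.8, 149.9 and 68.3 FPKM, were 3.48-fold lower (3.19 to 3.803) and 2.19-fold lower (2.05 to 2.35), both with a 6 h value below that of the control.

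BMP and TGF-beta targets were divided. Of 20 listed 15 were kept, 3 were at least 2-fold lower and 0 higher, with a median of -0.46, or -0.10 over the 19 members above 0 when the low ones are included. The 3 were Bmp4, a BMP ligand, with 7.55 FPKM at 1 h and 1.203 at 6 h beside 2.99 in the control, 6.27-fold lower (4.63 to 8.50); the inhibitor of differentiation gene Id2, with 24.4 FPKM in the control, then 44.9 at 1 h and 12.5 at 6 h, 3.59-fold lower (3.05 to 4.23); and the transcription factor gene Atoh8, with 12.2 FPKM at 1 h and 4.08 at 6 h beside 11.2 in the control, 2.99-fold lower (2.41 to 3.71). Within 2-fold, the typical BMP targets Id1 and Id3 differed by -0.91 and -0.74. The typical TGF-beta target Pmepa1, which encodes a feedback inhibitor of SMADs, had 60.9, 47.5 and 90.5 FPKM, a difference of 0.92.

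Secreted signals differed in both directions. Of 24 activin, interleukin and growth factor genes 20 were kept, with 6 past 2-fold upward and 4 downward, and a median of -0.03. Il11, an interleukin of the Il6 family, had 0.103 FPKM in the control, then 0.304 at 1 h and 5.54 at 6 h, 18.2-fold higher (10.3 to 32.1). Tgfb1, a TGF-beta ligand, had 26.3 FPKM at 1 h and 99.6 at 6 h beside 33.3 in the control, 3.78-fold higher (3.46 to 4.13). Inhba, the activin A subunit, had 66.3 FPKM in the control, then 148 at 1 h and 493 at 6 h, 3.34-fold higher (3.19 to 3.50). Inhba was already above the control at 1 h, Tgfb1 was not, and Il11 lay below 1 FPKM in both of the other libraries. The remaining 3 higher genes were Il6, with 0.487, 2.86 and 10.0 FPKM, the fibroblast growth factor gene Fgf2, with 4.39, 3.53 and 10.6 FPKM, and Clcf1, another Il6 family cytokine, with 30.1, 42.1 and 105 FPKM.

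On the lower side, Edn1, which encodes the vasoconstrictor endothelin, had 29.1 FPKM at 1 h and 2.44 at 6 h beside 6.95 in the control, 11.9-fold lower (9.55 to 14.9). Fgf7, the keratinocyte growth factor, had 22.7 FPKM in the control, then 31.4 at 1 h and 8.11 at 6 h, 3.87-fold lower (3.39 to 4.42). The neurotrophin gene Bdnf had 22.9 FPKM at 1 h and 6.32 at 6 h beside 7.90 in the control, 3.62-fold lower (3.23 to 4.05), and the hepatocyte growth factor gene Hgf 16.4, 19.5 and 8.16 FPKM, 2.39-fold lower (2.08 to 2.76). Edn1, Fgf7, Bdnf and Hgf all stood lower at 6 h than in the control.

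EGF family genes leaned upward. Of 10 listed 7 were kept, 1 was at least 2-fold higher and 0 lower, and the median was 0.34. Btc, the EGF receptor ligand betacellulin, had 1.78 FPKM in the control, then 1.04 at 1 h and 5.29 at 6 h, 5.07-fold higher (3.797 to 6.77). The receptor genes Egfr and Erbb2 differed by 0.72 and 0.51, and the ligand gene Nrg1 by -0.97. Areg, Ereg and Hbegf, ligands whose 1 h levels were already above the control, differed by 0.34, 0.24 and 0.16 without coming down as the early transcription factors did.

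NF-kB targets and chemokines leaned downward. Of 22 listed 16 were kept, 4 were at least 2-fold lower and 0 higher, with a median of -0.49. Cxcl12, a homing chemokine, had 36.8 FPKM at 1 h and 10.5 at 6 h beside 20.8 in the control, 3.50-fold lower (3.10 to 3.94). The neutrophil chemokine gene Cxcl1 had 24.8 FPKM in the control, then 53.8 at 1 h and 21.3 at 6 h, 2.52-fold lower (2.13 to 2.98). Nfkbiz, a nuclear IkB protein, was at 2.47, 6.997 and 2.46 FPKM and the monocyte chemokine gene Ccl7 at 108, 113 and 53.4 FPKM, 2.84-fold lower (2.37 to 3.40) and 2.12-fold lower (1.87 to 2.40).

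Muscle genes were few and split. Of 16 myogenic regulators 7 were kept, with 2 at least 2-fold higher, 1 lower and a median of -0.19. Myf5 had 26.4 FPKM at 1 h and 8.51 at 6 h beside 11.4 in the control, 3.10-fold lower (2.66 to 3.62), at chr10:106919964-106923190 (mm9). M-cadherin (Cdh15), an adhesion molecule of satellite cells and myoblasts, had 27.4 FPKM in the control, then 41.2 at 1 h and 87.0 at 6 h, 2.11-fold higher (1.98 to 2.25). The homeobox gene Six4, which acts upstream of myogenic factors, had 1.99 FPKM at 1 h and 5.27 at 6 h beside 4.33 in the control, 2.66-fold higher (2.24 to 3.15). Of 26 contractile and structural genes 6 were kept, 1 was at least 2-fold higher and 0 lower, with a median of 0.13, which turned to -0.14 over the members averaging 5 FPKM or more. That gene was Tnnt2, the troponin T of heart and embryonic muscle, with 16.1 FPKM in the control, then 12.04 at 1 h and 69.1 at 6 h, 5.73-fold higher (4.93 to 6.67). The skeletal actin gene Acta1, at 33.7, 35.5 and 29.2 FPKM, and the other kept members were within 2-fold, and the myosin heavy chains Myh1, Myh3, Myh7 and Myh8 stayed below 1 FPKM in all libraries.

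Matrix and adhesion genes had members on both sides. Of 41 listed 36 were kept, 3 were at least 2-fold higher and 2 lower, with a median of 0.05. Pkp1, the desmosomal plaque protein plakophilin, had 4.78 FPKM at 1 h and 39.8 at 6 h beside 5.60 in the control, 8.33-fold higher (7.35 to 9.44). Itgb3, the beta subunit of the vitronectin receptor, had 5.17 FPKM in the control, then 5.26 at 1 h and 22.9 at 6 h, 4.35-fold higher (3.902 to 4.85). Tenascin C (Tnc), a matrix glycoprotein of remodelling tissue, had 78.1 FPKM at 1 h and 183 at 6 h beside 69.9 in the control, 2.34-fold higher (2.27 to 2.41). The control and 1 h values of these 3 genes were near each other, and the 6 h value lay above both. Plau, the urokinase plasminogen activator, had 24.0 FPKM in the control, then 106 at 1 h and 30.3 at 6 h, 3.51-fold lower (3.25 to 3.79), and thrombospondin (Thbs1), an adhesive glycoprotein, 580.2 FPKM at 1 h and 242 at 6 h beside 209 in the control, 2.39-fold lower (2.35 to 2.44), both highest at 1 h.

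Several smaller stress and signal lists had lower members and 0 higher ones past 2-fold. Closest to 2-fold upward were a clock gene at 0.98 and a hypoxia and glycolysis gene at 0.91. Of 18 clock genes 14 were kept, with 3 lower and a median of -0.51, or -0.27 with a pseudocount of 5. Per1, a period gene and repressor of the clock, had 5.42 FPKM in the control, then 15.3 at 1 h and 5.43 at 6 h, 2.81-fold lower (2.51 to 3.15). The nuclear receptor gene Nr1d1 was at 12.1, 27.5 and 11.1 FPKM, and Gm129, whose product is a clock modulator, at 0.984, 3.64 and 0.590 FPKM, 2.48-fold lower (2.20 to 2.80) and 6.17-fold lower (3.66 to 10.4). Of 12 glucocorticoid-responsive genes 9 were kept, with 3 lower and a median of -0.12. Sgk1, a serum- and glucocorticoid-induced kinase, had 290.1 FPKM at 1 h and 48.1 at 6 h beside 51.1 in the control, 6.03-fold lower (5.70 to 6.38). Tsc22d3 had 5.75, 13.5 and 4.75 FPKM, 2.84-fold lower (2.38 to 3.38), and Pdk4, which restrains pyruvate oxidation, 27.9, 27.9 and 10.7 FPKM, 2.61-fold lower (2.32 to 2.93). Sgk1 and Tsc22d3 were highest at 1 h, while Pdk4 had nearly the same level in the control and at 1 h and was low at 6 h.

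Of 26 amino acid and ER stress genes 24 were kept, with 3 lower and a median of -0.18. Chac1, which degrades glutathione, had 3.23 FPKM in the control, then 13.1 at 1 h and 2.64 at 6 h, 4.98-fold lower (3.68 to 6.73). The pseudokinase gene Trib3 had 0.994, 3.21 and 0.737 FPKM and Ppp1r15a, the stress-induced phosphatase subunit, 11.3, 36.5 and 14.5 FPKM, 4.36-fold lower (2.91 to 6.53) and 2.51-fold lower (2.23 to 2.83). Of 18 p53 targets 17 were kept, with 4 lower and a median of -0.32, or -0.19 with a pseudocount of 5. Plk2, a polo-like kinase, had 122 FPKM at 1 h and 30.9 at 6 h beside 46.1 in the control, 3.95-fold lower (3.68 to 4.23). The other 3 were its relative Plk3 at 9.02, 25.9 and 12.02 FPKM, the cell death gene Bbc3 at 2.25, 4.27 and 1.29 FPKM and the growth arrest gene Gadd45g at 170.2, 364 and 162 FPKM. The cell cycle inhibitor gene Cdkn1a was within 2-fold, at 111, 188 and 141 FPKM.

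Of 23 hypoxia and glycolysis genes 20 were kept, with 2 lower and a median of -0.15. The mitophagy gene Bnip3 had 8.96 FPKM in the control, then 16.6 at 1 h and 5.43 at 6 h, 3.06-fold lower (2.46 to 3.79), and Ankrd37 1.06, 3.802 and 1.32 FPKM, 2.88-fold lower (1.64 to 5.05). Of 15 amino acid transporters 11 were kept, and 1 was lower, with a median of -0.02, or 0.02 after scaling to a median ratio of 1. That was the glutamate transporter gene Slc1a3, with 6.09 FPKM at 1 h and 1.11 at 6 h beside 6.64 in the control, 5.50-fold lower (4.37 to 6.92). Heat shock genes were level: 15 of 15 were kept, 0 were past 2-fold, the median was 0.01, and the lowest and highest members were Dnajb1 (-0.45) and Hspb8 (0.49). In 19 interferon-stimulated genes, 7 of them kept, 0 were past 2-fold and the median was -0.34. Of the 7 kept, 4 were below the 1 h level and 3 above it, in a range from -0.98 to 0.60, with bounds apart for 3 lower and 1 higher. Ifit2, an interferon-induced gene, differed by -0.57, and Irf9, which encodes a subunit of the interferon-activated factor ISGF3, by 0.60.

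Ribosome biogenesis and cytosolic ribosomal protein genes that were kept all stood slightly above their 1 h level at 6 h. Of 39 listed ribosome biogenesis genes 38 were kept, 34 of them higher with bounds apart, with a median of 0.30 and 0 past 2-fold. The largest differences were those of Polr1b, a subunit of RNA polymerase I, at 11.05, 8.10 and 13.9 FPKM, and Nop16, at 59.3, 46.1 and 73.7 FPKM. Of the 35 cytosolic ribosomal protein genes kept, 29 were higher with bounds apart, with a median of only 0.10, led by Rps24 (0.23) and Rps14 (0.18). Among all genes kept 4653 were above and 5658 below the 1 h level. Sterol and fatty acid synthesis genes, 28 of 32 kept, showed a median of 0.24, 22 above and 6 below the 1 h level and 0 past 2-fold; Lss, the lanosterol synthase, had 10.5, 4.26 and 7.57 FPKM and the desaturase gene Scd2 101, 48.7 and 79.7 FPKM. Proteasome subunit genes had a median of 0.16 over 31, with 30 above the 1 h level; Psmd11 (0.56) and Psma5 (0.39) differed most.

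The cell cycle lists lay mostly below the 1 h level. G1/S and DNA replication genes, 29 of 30 kept, showed a median of -0.23, 27 of them below the 1 h level and 0 past 2-fold. Cdc45, a part of the replicative helicase, had 24.9, 29.4 and 19.2 FPKM, and the polymerase gene Pola1 9.98, 13.2 and 8.92 FPKM. Mitosis and G2/M genes showed a median of -0.20 among 30, 25 of them below the 1 h level. The spindle gene Nusap1 had 17.9, 24.5 and 14.0 FPKM and the cyclin gene Ccna2 79.5, 117 and 75.1 FPKM, and for these 4 genes 1 h was the highest of the libraries. Aminoacyl-tRNA synthetases (median -0.11 over 20, 13 of them below the 1 h level), mitochondrial ribosomal proteins (0.05 over 30, 17 above and 13 below) and splicing regulators (0.05 over 25) had 0 members past 2-fold, with Aars (-0.65) and Lars (-0.34), Mrps30 (0.39) and Mrps10 (-0.30), and Clk1 (0.68) and Srsf5 (-0.49) farthest from 0. Long noncoding and snoRNA host RNAs had a median of 0.32 over 12 of 18, with Snhg3 at 0.74 and Snhg7 at 0.68. Of 20 housekeeping genes the median was 0.01, and 1 was past 2-fold, downward.

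The markers of other lineages had 0 members past 2-fold among those kept. The mural and mesenchymal receptor gene Pdgfrb had 91.3, 77.7 and 136 FPKM and the proteoglycan gene Cspg4 2.77, 3.12 and 6.74 FPKM, differences of 0.80 and 0.91. Spp1 had 944, 964 and 1601 FPKM and the osteoblast transcription factor gene Runx2 12.7, 15.5 and 15.6 FPKM. The adipogenic regulators Cebpa and Pparg had 11.3, 6.47 and 2.76 FPKM and 11.8, 14.8 and 9.67 FPKM.

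**Figure D4:**
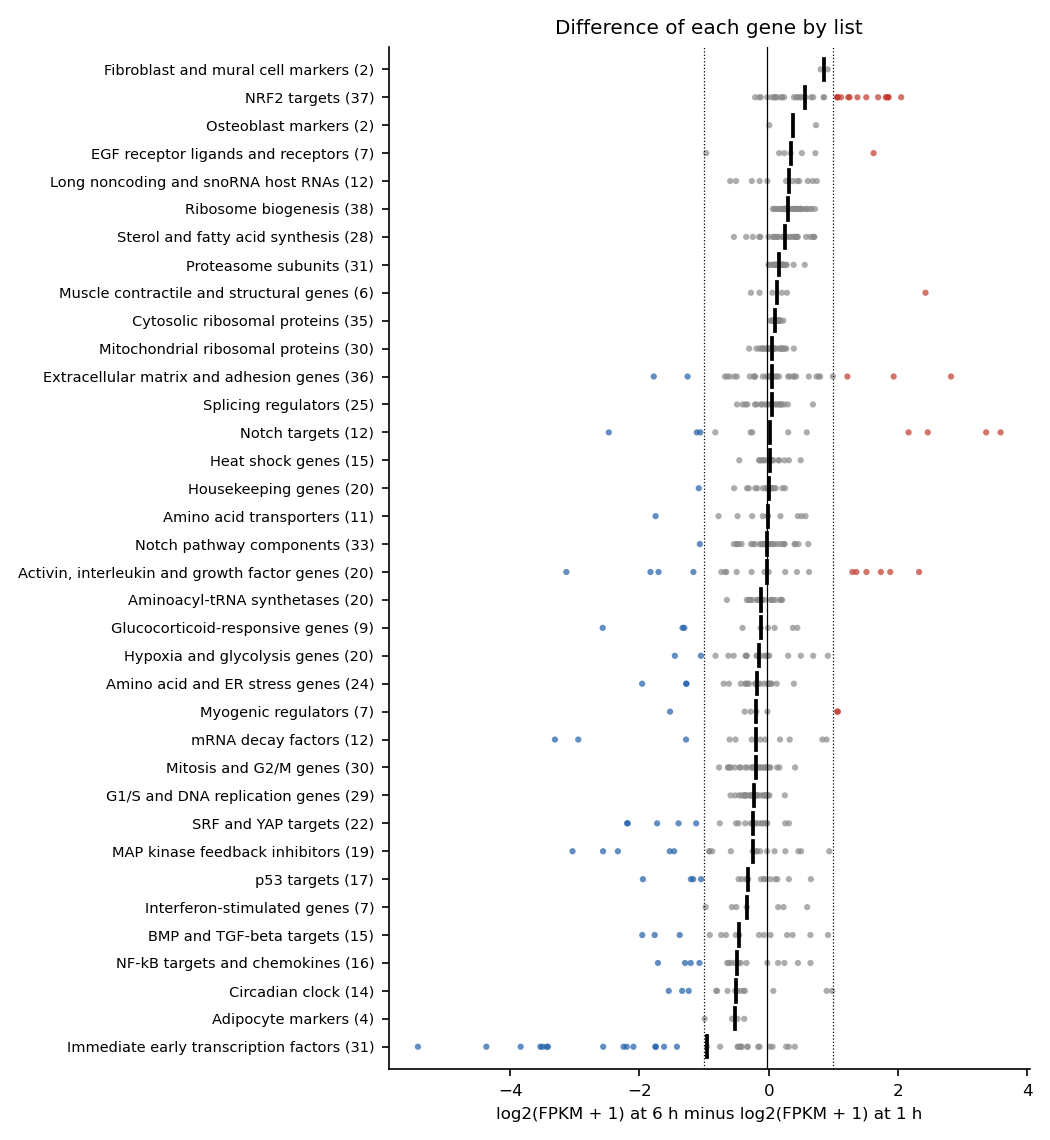
Difference of each kept gene, log2(FPKM + 1) at 6 h minus 1 h, for every list with at least 2 kept genes (number in brackets), ordered by median (black bar). Red and blue points are at or past 2-fold (dotted lines) and the thin line is the median of all genes kept. NRF2 targets hold 14 red points and 0 blue ones, immediate early transcription factors 15 blue and 0 red, and Notch targets lie on both sides.

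The 15 genes with the highest differences included several outside the lists. Hr, a nuclear corepressor known from hair follicles, had 1.405 FPKM in the control, then 0.813 at 1 h and 7.86 at 6 h, 9.66-fold higher (7.80 to 11.98). Sec14l2, a lipid-binding protein, had 0.952 FPKM at 1 h and 8.07 at 6 h beside 1.75 in the control, 8.47-fold higher (6.15 to 11.7). D8Ertd82e, at 5.79, 3.20 and 18.0 FPKM, was 5.62-fold higher (4.88 to 6.48). The cell adhesion gene Mcam had 4.15 FPKM in the control, then 3.59 at 1 h and 15.8 at 6 h, 4.40-fold higher (3.64 to 5.31). The other genes of this set are Nrarp, Heyl, Pkp1, Hey1, Tnnt2, Il11, Jag1, Hmox1, Gm3776, Itgb3 and Tgfb1. The 15 lowest were Egr1, Nr4a1, Egr3, Atf3, Egr2, Fosb, Fos, Btg2, Edn1, Dusp2, Zfp36, Sgk1, Dusp1, Klf2 and Hes1, all members of a list. The lists were chosen with earlier results of these data known, so membership in them is a description only. In total 31 of the 113 higher and 63 of the 141 lower genes belonged to 1 of the 37 lists.

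The strongly lower genes had short loci. The median locus span in the files was 21.9 kb over all genes kept, 18.4 kb over the 113 higher genes, 14.3 kb over the 141 lower genes and 4.02 kb over the 26 genes at least 4-fold lower. A locus of at most 5 kb belonged to 13.1% of all genes kept, 11.5% of the higher and 25.5% of the lower genes, and to 57.7% of those at least 4-fold lower. The 11 genes at least 4-fold higher had a median of 16.3 kb, with Nrarp and Hey1 the compact ones. Median exon numbers of the longest coding transcript in GENCODE on GRCm38.p6 were 9 over all genes, 7 over the higher, 5 over the lower and 4 over the at least 4-fold lower genes. The AU-rich letters TATTTAT, a core of elements that shorten mRNA life, stood in the 3′ UTR of 30.8% of 10000 genes with an annotated one, of 32.4% of 108 higher genes and of 53.2% of 139 lower genes. Among the 26 genes at least 4-fold lower the share was 61.5%. The 3′ UTRs were of similar length, with medians of 1169 nt over all genes, 1310 nt over the higher, 1382 nt over the lower and 1028 nt over the at least 4-fold lower genes. The AU-rich letters were chosen after the lower genes had been seen, and all of these shares are descriptions.

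**Figure D5:**
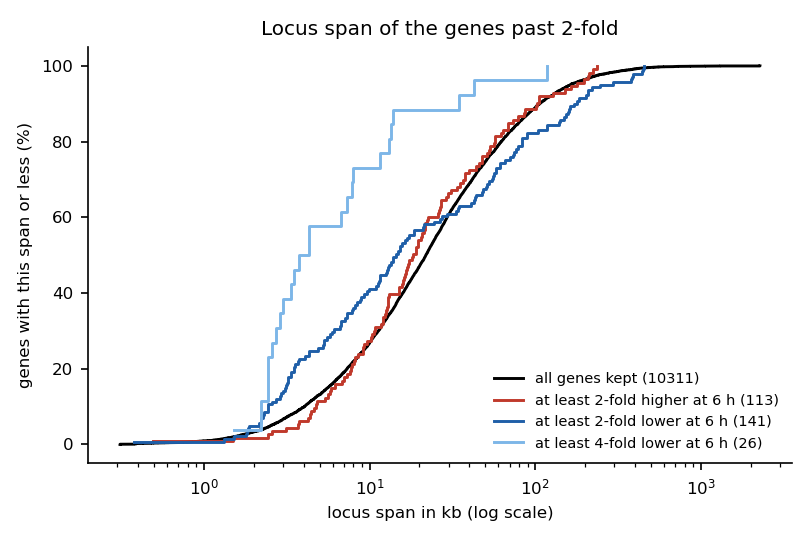
Cumulative share (percent) of genes with a locus span up to the value on the horizontal axis (kb, log scale) for all 10311 genes kept, the 113 higher, the 141 lower and the 26 at least 4-fold lower genes. The curve of the 26 lies far to the left, with a median of 4.02 kb beside 21.9 kb for all genes kept.

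Genes listed at 0 in any library were set apart, since a 0 in these files can be a failed estimate. Of such genes 52 averaged 1 FPKM or more in the washout libraries, 19 at 0 in the 1 h library, 23 at 0 in the 6 h library and 10 at 0 in the control only. On the log2(FPKM + 1) scale 19 of the 52 were past 2-fold upward and 24 downward, far beyond the 2.46% among the genes kept, as a value of 0 against any level forces. The 5 lowest were the ribosomal protein gene Rps27, with 238 FPKM at 1 h and 0 in the other libraries; Ddit3, a stress-induced transcription factor, with 57.8 FPKM at 1 h, 43.8 in the control and 0 at 6 h; Znhit1, with 36.9, 38.9 and 0 FPKM; and Nt5c3l and Mxd3, listed at 0 except at 1 h. The 5 highest were Exosc6, Sco2, Exosc9, Gm12238 and Ttc19, all listed at 0 at 1 h and at 38.2, 29.3, 19.3, 12.2 and 10.2 FPKM at 6 h. Exosc6 and Exosc9, subunits of the RNA exosome, had 35.7 and 18.1 FPKM in the control. No fold is given for any of them.

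Short RNA symbols (microRNA, small nucleolar and similar genes) were also set apart, because polyadenylated libraries and FPKM over so short a length measure them poorly. Of the 73 that averaged 1 FPKM or more, 23 were past 2-fold upward and 15 downward at 6 h, and 36 were listed at 0 in at least 1 library. Mir1982, for example, chosen after its values were seen, had 384 FPKM in the control and 870.4 at 1 h and was listed at 0 at 6 h.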

How the data were processed

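Polyadenylated RNA of 3 libraries, 1 per group, was sequenced. The deposited values are FPKM made by the authors, accompanied, per the file headers, by 95% bounds, a status flag and a locus; TopHat, Cufflinks, FastQC and the mouse build mm9 are named in the submitters' processing notes, with no version, setting, annotation or strand that the sources used here give. FPKM is relative to library size, so a few abundant genes can shift all others. The table of the whole series was used, equal to the tables of single libraries in all 23807 rows; rows were summed per symbol to 23298 symbols. Of these, 10436 had a mean of at least 1 FPKM at 1 h and 6 h, and 73 short RNAs and 52 genes at 0 in a library were set apart, which left 10311. Deposited FPKM lay outside its own bounds for 19.9% of rows above 1 FPKM at 1 h and 20.0% at 6 h. Only the widths and overlaps of the bounds entered the results. An overlap depends on where the bounds lie, so counts of genes with bounds apart are uncertain to an extent that was not tested. No count test was made, since the levels are FPKM alone. The formula of the difference was checked on simulated counts with planted changes. The bounds, the rules for genes set apart and the lists were not checked in this way.

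Differences used a pseudocount of 1, which understates the difference of low genes. Locus starts are printed with 1 added, on mm9. GRCm38.p6 served for transcript features and RefSeq promoters only. The members and the 37 lists (828 genes) were chosen with earlier results of these data known, so counts and medians describe the libraries. Named are the 15 highest and 15 lowest genes with bounds apart, all Notch targets, Heyl, Txnrd1 and Hes1, up to 6 members past 2-fold of each other list (where none passed, the 2 farthest from 0), the 5 highest and 5 lowest genes at 0, and members that complete a count of 5 or fewer. Others named, among them within-threshold list members, the remaining NRF2 targets and the pathway components, were chosen after their values were seen. Values of some single list members are not reported here. Alternatives are a pseudocount of 0.1 or 5, other filters, rescalings and thresholds, and each list without its largest member. Python 3.11.15, pandas 2.3.3, numpy 2.4.6 and matplotlib 3.10.9 were used.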

Additional observations from a re-analysis of the deposited data

How the results depend on the processing

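The 2-fold counts, 113 higher and 141 lower, depended on the pseudocount and the threshold: they were 177 and 234 with a pseudocount of 0.1, 46 and 65 with 5, and 439 and 540 at 1.5-fold. Under the other settings they stayed within 1.5 times of these, from 91 and 105 with genes averaging 5 FPKM or more to 155 and 180 with genes at 0 and short RNAs kept, and 121 and 131 after scaling the median ratio to 1. List medians moved or turned in 13 and 2 of the combinations of list and setting, and 417 stayed within the limit set for them. With a pseudocount of 5 the medians were -0.35 for BMP and TGF-beta targets, -0.27 for clock genes, -0.19 for p53 targets and 0.65 for fibroblast and mural markers, and clock genes were at -0.73 with 0.1. Among genes averaging 5 FPKM or more they were -1.19 for immediate early transcription factors, -0.59 for MAP kinase feedback inhibitors, -0.30 for BMP and TGF-beta targets and, turned, -0.14 for contractile genes. Without a filter on low values they were -0.10 for BMP and TGF-beta targets, 0.0088 for osteoblast markers and, turned, -0.0041 for contractile genes. Without the member that differed most they were -0.25 for Notch targets (Nrarp left out), -0.30 for BMP and TGF-beta targets (Bmp4) and 0.0088 for osteoblast markers (Spp1). Medians near 0 changed sign for Notch targets (-0.02 with a pseudocount of 5), for Notch pathway components (0.01) and amino acid transporters (0.02) after scaling the median ratio to 1, and for heat shock genes (-0.01 without Hspb8). The causes were not tested. Of single genes and settings, 2479 stayed within the limit, 255 moved and 0 turned. No paired analysis was possible because each group is 1 library. With 1 library a side, no alternative shows how far cultures of 1 condition differ, which limits every statement here, and a low level such as those of Nrarp and Heyl at 1 h rests on few fragments.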

Other observations

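Outside the lists stood 82 of the 113 higher and 78 of the 141 lower genes, and the following were chosen after their values were seen. Among regulators of cell shape and the surface, the small GTPase gene Rhob had 204 FPKM at 1 h and 42.1 at 6 h beside 53.4 in the control, 4.84-fold lower (4.53 to 5.17), and tissue factor (F3), which starts blood coagulation, 45.6 FPKM in the control, then 128 at 1 h and 26.8 at 6 h, 4.77-fold lower (4.35 to 5.23). Both were highest at 1 h. Cited2, a transcriptional coregulator that binds CBP and p300, had 315 FPKM at 1 h and 69.9 at 6 h beside 132 in the control, 4.50-fold lower (4.25 to 4.77). The matrix proteases Adamts5 and Adamts1 had 2.04, 7.92 and 0.705 FPKM and 6.05, 17.2 and 4.85 FPKM, 11.2-fold lower (9.30 to 13.5) and 3.55-fold lower (3.14 to 4.01).

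Lower at 6 h than in either other library were the Hedgehog coreceptor genes Gas1, with 41.5, 46.9 and 15.1 FPKM, and Cdon, a surface receptor that also promotes myogenesis, with 11.3, 15.8 and 4.77 FPKM, and the retinaldehyde reductase gene Dhrs3, with 5.12, 7.92 and 1.11 FPKM. Rspo2, a Wnt potentiator, had 0.510, 1.90 and 0.0980 FPKM. Higher at 6 h than in either other library were the receptor gene Gpr39, with 4.30, 3.33 and 12.9 FPKM, the myosin kinase gene Mylk2, with 0.313, 0.145 and 2.88 FPKM, the retinoic acid synthesis gene Aldh1a3, with 0.305, 0.194 and 2.05 FPKM, and the phosphate transporter gene Slc20a1, with 42.6, 52.1 and 139 FPKM. The aldehyde dehydrogenase gene Aldh3a1 had 39.2, 13.2 and 42.0 FPKM, 3.18-fold higher (2.81 to 3.599), and the hyaluronan receptor gene Layn 61.1, 17.4 and 49.3 FPKM, 2.83-fold higher (2.52 to 3.19), each lowest at 1 h.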
